A study of Mus musculus with 12 samples.

Results

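The genes described here encode collagen chains, the subunits of the main structural proteins of connective tissue. Rows of the mRNA table were taken where the gene symbol names a collagen chain by type and chain number and where the value was not 0 in all 6 libraries, which gave 44 genes of 22769 with values. They were sorted by structure into 11 fibrillar chains, 6 chains of the basement membrane collagen type IV, 9 chains of fibril-associated collagens with interrupted helices (FACIT) and 18 others. Collagen chains fold in the endoplasmic reticulum into helices of several chains, are hydroxylated and glycosylated there, and are then exported, trimmed by proteases and crosslinked. In a tumour graft most fibrillar collagen is known to come from host fibroblasts and pericytes, while type IV collagen is laid down by epithelial, endothelial and mural cells at basement membranes. Cells bind collagen through integrins and the discoidin domain receptors.

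The control group held tumours grown from 4T1 cells, an established line of mouse mammary carcinoma, in Balb/c mice that received no treatment. The stress group held 4T1 tumours from Balb/c mice restrained for 2 hours daily over 28 days. Both groups were sampled 35 days after inoculation, and each had 3 mRNA and 3 miRNA libraries from bulk tumour RNA. Both groups share the one cell line and strain, and stroma in these libraries comes from the host. No label ties a library to its own mouse, so p-values measure the spread between these libraries, which may be technical.

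The mRNA values are normalized log2 values, and the read depth behind them is unknown. A value is given below for replicates 1, 2 and 3 in that order, and a difference is stress minus control on the log2 scale, followed by its standard error (SE). Tests are limma's moderated test on the 14098 genes whose mean log2 value reached 4. P-values carry a Benjamini-Hochberg adjustment across those genes, and a gene is called where it is under 0.05. Of the 44 collagen genes, 35 passed that filter, all 11 fibrillar, 4 of 6 basement membrane, 5 of 9 FACIT and 15 of 18 others. Type IV chain Col4a6 was the lowest to pass, at a mean of 4.00, and Col4a4 the highest that did not, at a mean of 3.27. Tumour epithelium markers were high in every library, for example the keratin Krt8 at 13.75 to 13.89 and Epcam at 11.17 to 11.54. On fibroblast markers control replicate 1 stood apart from the other controls. Its mean over 17 tested markers was 10.41, against 11.09 and 10.84 in control replicates 2 and 3 and 10.31 to 10.42 in stress. It was also lowest on skeletal muscle markers (7.83 against 8.70 and 8.92). It did not stand apart on endothelial (8.92 against 8.89 and 9.11) or tumour epithelium markers (10.31 against 10.27 and 10.16). Control replicate 1 is kept in the main values, and results are also given without it. It was singled out for fibroblast values close to stress, so leaving it out favours larger differences in genes that follow those markers.

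No collagen gene passed the test. Limma called 0 of 35, with a smallest adjusted p of 0.104, against 5 of all 14098 genes or 0.0355%. At an unadjusted p under 0.05, 9 of 35 collagen genes were lower in stress, where 9.15% of all genes were, and 2 were higher, where 8.26% were. In sign, 25 of 35 had a lower mean in stress, and the median difference was -0.16, against 0.0014 over all genes. The groups did not overlap for 5 collagen genes lower in stress (Col5a2, Col6a3, Col12a1, Col15a1 and Col28a1), where 12.3% of all genes were so, and for 1 higher (Col20a1), where 12.1% were. Without control replicate 1 the count lower at an unadjusted p under 0.05 was 15, and leaving out control replicate 2, control replicate 3, stress replicate 2 or stress replicate 3 gave 5, 4, 4 and 5. In those fits, in that order, the share of all genes lower at that p was 9.39%, 7.14%, 6.07%, 8.62% and 6.85%. The count thus moved with single libraries of either group, and the share over all genes moved too.

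By class, 8 of 11 fibrillar chains were lower in stress, with a median difference of -0.37, and 5 had an unadjusted p under 0.05. That count was 7 without control replicate 1, where 9.39% of all genes were lower at that p. It was 1 on leaving out control replicate 2, control replicate 3 or stress replicate 2, where 7.14%, 6.07% and 8.62% of all genes were. Of 4 tested basement membrane chains 2 were lower, with a median of -0.0066, and 0 were lower without stress replicate 2, with a median of 0.05. Of 5 FACIT chains 2 were lower, with a median of 0.04, and 3 were lower without control replicate 2 or stress replicate 3, with medians of -0.04 each time. Of 15 other chains 13 were lower, with a median of -0.16, and 4 had an unadjusted p under 0.05. In the main fit 9.15% of all genes were lower at that p. No test of a difference between classes was made.

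**Figure D1:**
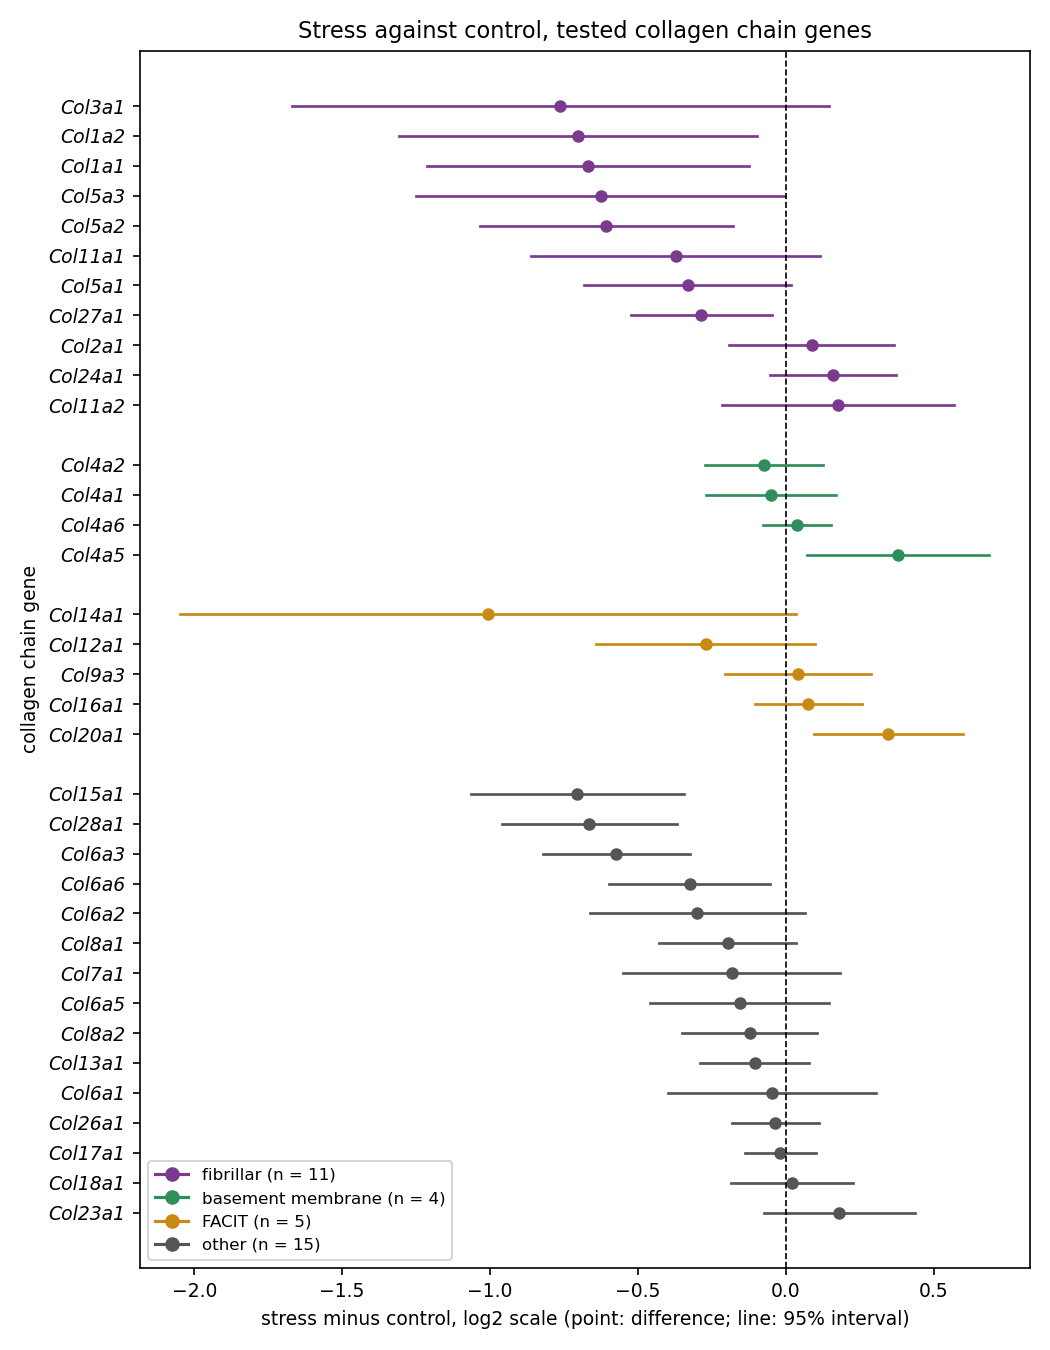
Difference between stress and control (x axis, log2 scale) for each of the 35 tested collagen chain genes (y axis), coloured by class; points are limma estimates and lines their 95% intervals. The points of the fibrillar types I, III and V lie left of 0, although the intervals of Col3a1 and Col5a1 cover it, as do those of Col4a1 and Col4a2, and no gene passed adjustment over all genes.

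Levels can be compared between genes only per length, so each mean log2 value was divided on the linear scale by the length of the GENCODE M21 transcript with the longest coding sequence. On that scale (log2 value per kb) the order began with Col3a1 (12.64), Col1a1 (12.35), Col1a2 (12.19), Col4a1 (11.36), Col6a1 (11.28), Col18a1 (10.58), Col4a2 (10.57), Col6a2 (10.43), Col5a2 (10.40) and Col7a1 (10.24). The tumours thus held fibrillar types I and III first, then the network chains of types IV and VI. The type I and III chains differed less from each other there than Col3a1 varied between control libraries (SD 0.73, n = 3), and Col4a1 and Col6a1 differed less than the control SD of Col6a1 (0.22, n = 3). At the other end stood cartilage chains, with Col9a1 at -2.87 and Col9a2 at -2.15. By level, 13 of 15 collagen genes with mean log2 values from 12 to 17 were lower in stress, with a median difference of -0.27 (0.04 over all genes of that level). From 8 to 12 it was 4 of 5 with a median of -0.63 (0.01 over all genes), and from 4 to 8 it was 8 of 15 with a median of -0.02 (-0.02 over all genes). The deposited values are shrunk at low levels, so the size of a difference may depend on level.

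**Figure D2:**
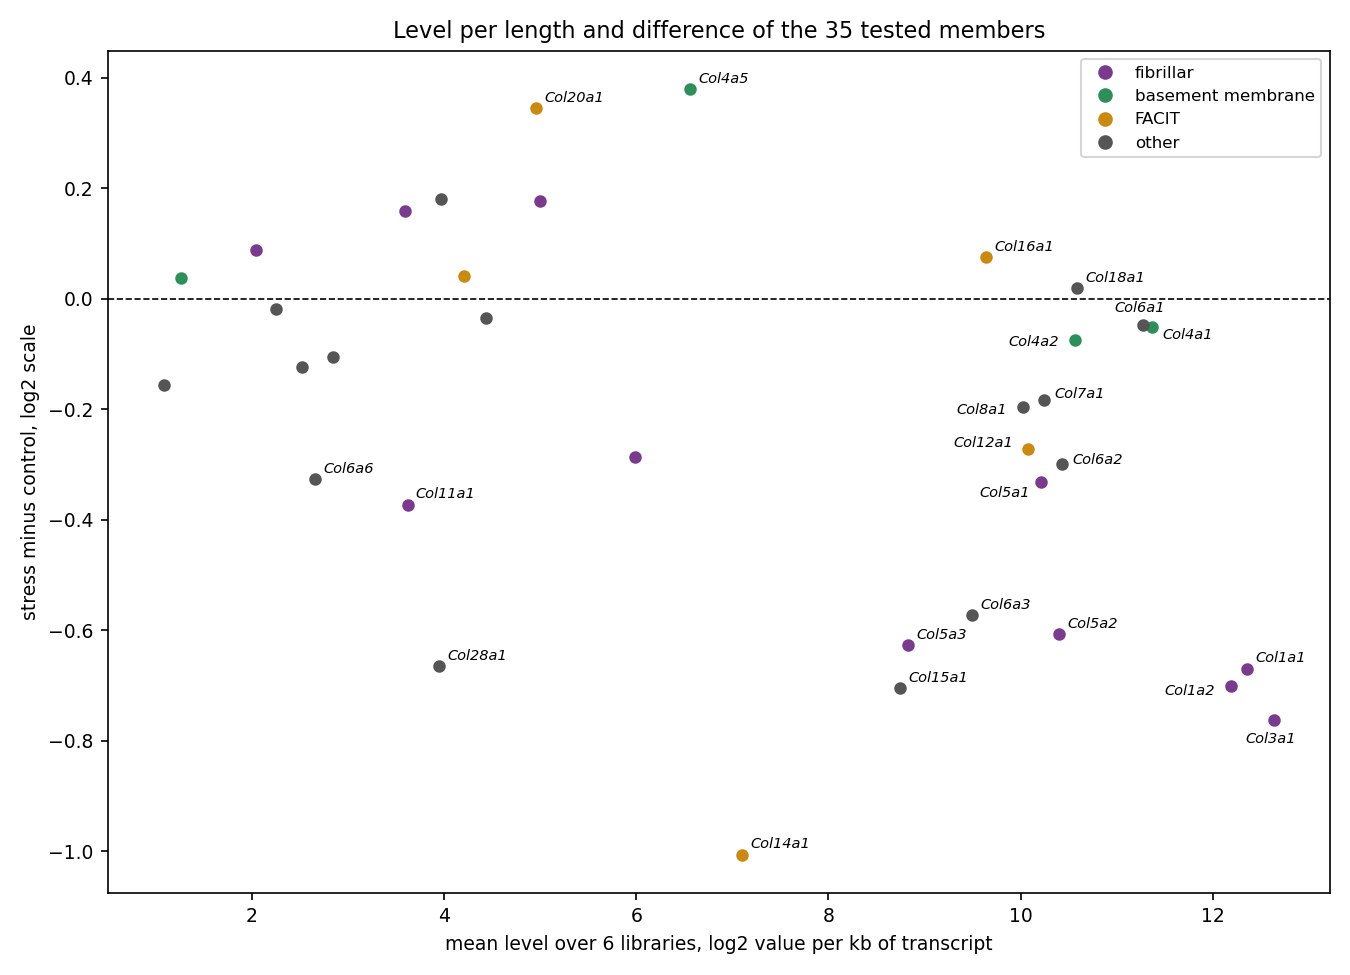
Mean level over the 6 libraries (x axis, log2 value per kb of transcript) against the stress minus control difference (y axis, log2 scale) for the 35 tested collagen chain genes, coloured by class. Col3a1, Col1a1 and Col1a2 are the most abundant and lie at -0.76 to -0.67, while the next in order of level, Col4a1 and Col6a1, lie at -0.05.

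The fibrillar chains build the crossbanded fibrils that give tissue its tensile strength. Type I collagen, the main fibril protein, is made of the products of Col1a1 (chr11:94936224-94953042, plus strand, mm10) and Col1a2 (chr6:4504814-4541544, plus strand). Col1a1 had log2 values of 14.73, 15.70 and 15.33 in control and 14.77, 14.51 and 14.48 in stress. Col1a2 had 14.40, 15.43 and 15.04 in control and 14.50, 14.24 and 14.03 in stress. Both chains were highest in control replicates 2 and 3, while control replicate 1 lay inside the stress range. The difference was -0.67 (SE 0.23, limma adjusted p = 0.217) for Col1a1 and -0.70 (SE 0.25, adjusted p = 0.237) for Col1a2. Without control replicate 1 these were -0.93 (adjusted p = 0.0859) and -0.98 (adjusted p = 0.0973), so neither passed there. Without control replicate 2 they were -0.45 (adjusted p = 0.341) and -0.47 (adjusted p = 0.371). Col3a1 (chr1:45311538-45349706, plus strand), whose product forms type III collagen and shares fibrils with type I, had 14.72, 16.18 and 15.59 in control and 15.08, 14.88 and 14.24 in stress. Its control values spanned more than any other fibrillar chain's, and its difference of -0.76 (SE 0.38, adjusted p = 0.352) was -1.15 without control replicate 1 and -0.42 without control replicate 2.

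Type V collagen sits inside type I fibrils and is needed to start them and limit their width. Col5a2 (chr1:45374321-45503282, minus strand), which neighbours Col3a1 at a distance of 24614 bases on the opposite strand, had 13.08, 13.81 and 13.41 in control and 13.03, 12.72 and 12.74 in stress. Its groups did not overlap, though control replicate 1 and stress replicate 1 were close, and the difference was -0.61 (SE 0.18, limma adjusted p = 0.179). Col5a1, its usual partner chain, had 13.11, 13.73 and 13.52 in control and 13.18, 13.03 and 13.16 in stress, a difference of -0.33 (adjusted p = 0.307) with overlap, and from -0.50 without control replicate 1 to -0.19 without control replicate 2. The rarer chain, Col5a3, had 11.20, 12.24 and 11.82 in control and 11.20, 10.84 and 11.35 in stress, a difference of -0.63 (adjusted p = 0.286) that leaving out the same libraries put at -0.90 and -0.38. All of these type V chains had their highest value in control replicate 2.

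The remaining fibrillar genes are best known from cartilage and bone. Col11a1, a chain of type XI collagen that is also made by activated fibroblasts, had 6.86, 6.70 and 6.68 in control and 6.88, 6.01 and 6.23 in stress. Stress replicate 1 was the highest library and the other stress libraries the lowest, and the difference of -0.37 (limma adjusted p = 0.393) ranged from -0.62 (stress replicate 1 left out) to -0.19 (stress replicate 2 left out). Col27a1 had 8.86, 9.13 and 9.19 in control and 8.77, 8.66 and 8.89 in stress (difference -0.29, adjusted p = 0.224). Col11a2 had the largest positive difference of the class, 0.18 (adjusted p = 0.611), which ranged from 0.0070 (control replicate 2 left out) to 0.30 (control replicate 3 left out). Col24a1 (0.16) and the cartilage gene Col2a1 (0.09) were also slightly higher in the stress mean. Of 10 cartilage and bone markers 2 passed the filter, and the summed linear value of the list was 1299 to 1661 in control and 1577 to 1686 in stress. The markers that passed were Runx2, at a mean of 10.32, and Ibsp, at a mean of 7.91. The defining Matn1 (-1.96), Sp7 (-1.02) and Acan (0.74) were near or under 0.

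**Figure D3:**
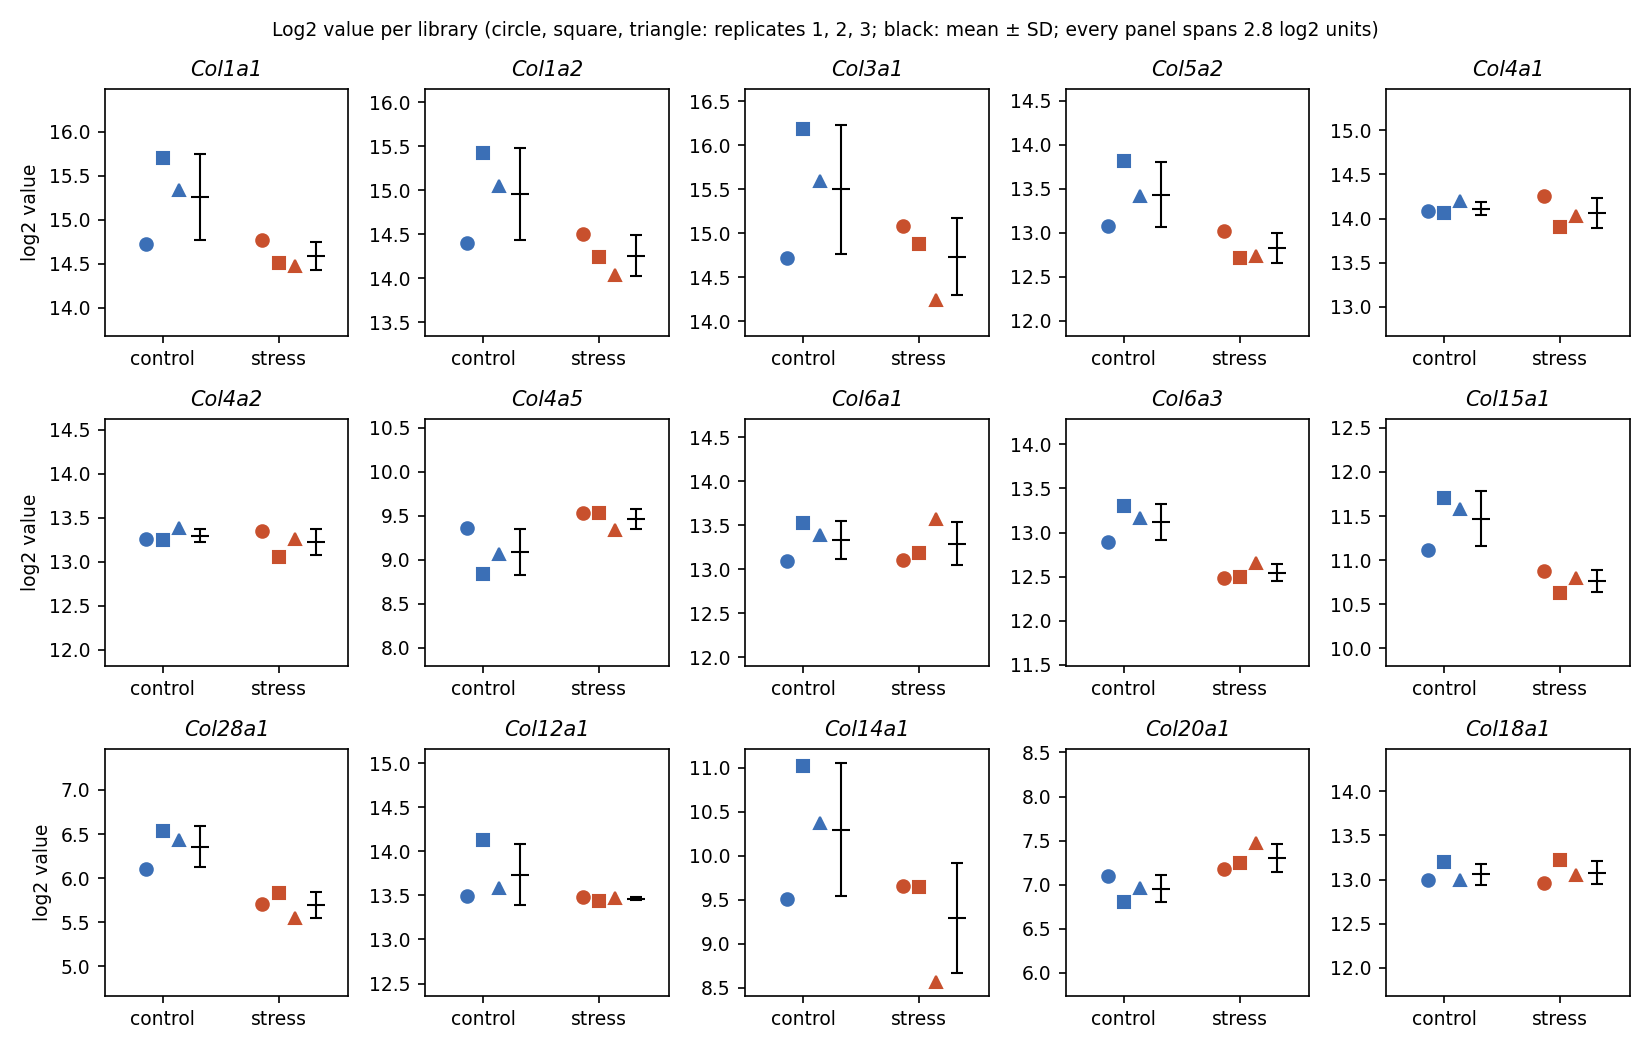
Log2 value (y axis) of 15 collagen chain genes in each library, with control in blue and stress in red, symbols for replicates, and black bars for mean ± SD (n = 3). In Col1a1, Col1a2 and Col3a1 the control circle (replicate 1) sits at the height of the stress libraries, whereas in Col6a3, Col15a1 and Col28a1 all control libraries sit above all stress libraries.

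The mean over the fibrillar chains was 10.45, 10.97 and 10.82 in control and 10.55, 10.27 and 10.35 in stress. Fibroblast markers, a list that holds no collagen, averaged 10.41, 11.09 and 10.84 in control and 10.42, 10.38 and 10.31 in stress. Of 17 tested fibroblast markers 14 were lower in stress and 0 were called by limma. An unadjusted p under 0.05 was found for 9, all lower, where 9.15% of all genes were lower at that p. The markers with a higher mean in stress were Fn1 (0.20), Pdgfra (0.19) and S100a4 (0.25). The summed linear value of the list was 204996 to 241402 in control and 233847 to 250392 in stress, most of it from Fn1, and without Fn1 it was 33995 to 47857 and 30248 to 33678. Of 18 listed fibroblast markers Tcf21 (0.58) was the one near 0. With each library's fibroblast mean as a covariate, the median fibrillar difference was -0.04 in place of -0.37, and Col3a1 stood at 0.16. No fibrillar chain had an unadjusted p under 0.05 in that fit, where 4.06% of all genes were lower at that p. The covariate comes from the same libraries and was lower in all stress libraries than in control replicates 2 and 3, so this fit cannot separate it from stress. In bulk tumour RNA, fewer cells of a type and less RNA per cell cannot be told apart. Skeletal muscle markers were lower in stress in 18 of 18, with means of 7.83, 8.70 and 8.92 in control and 7.96, 8.11 and 7.12 in stress, and summed linear values of 7376 to 18985 and 4289 to 9336. With that mean as a covariate 8 of 11 fibrillar chains were still lower, with a median of -0.24. None had an unadjusted p under 0.05, where 4.43% of all genes were lower at that p in the same fit. Of 12 tumour epithelium markers 6 were lower, with means of 10.16 to 10.31 in control and 10.10 to 10.38 in stress and summed linear values of 41705 to 46184 and 41460 to 46135. Neutrophil markers were higher in stress in 9 of 10 (means 6.81 to 6.96 and 7.08 to 7.60, summed linear values 1869 to 2087 and 2528 to 4073, with the defining Ly6g at -0.09), and their part in the collagen values was not tested.

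**Figure D4:**
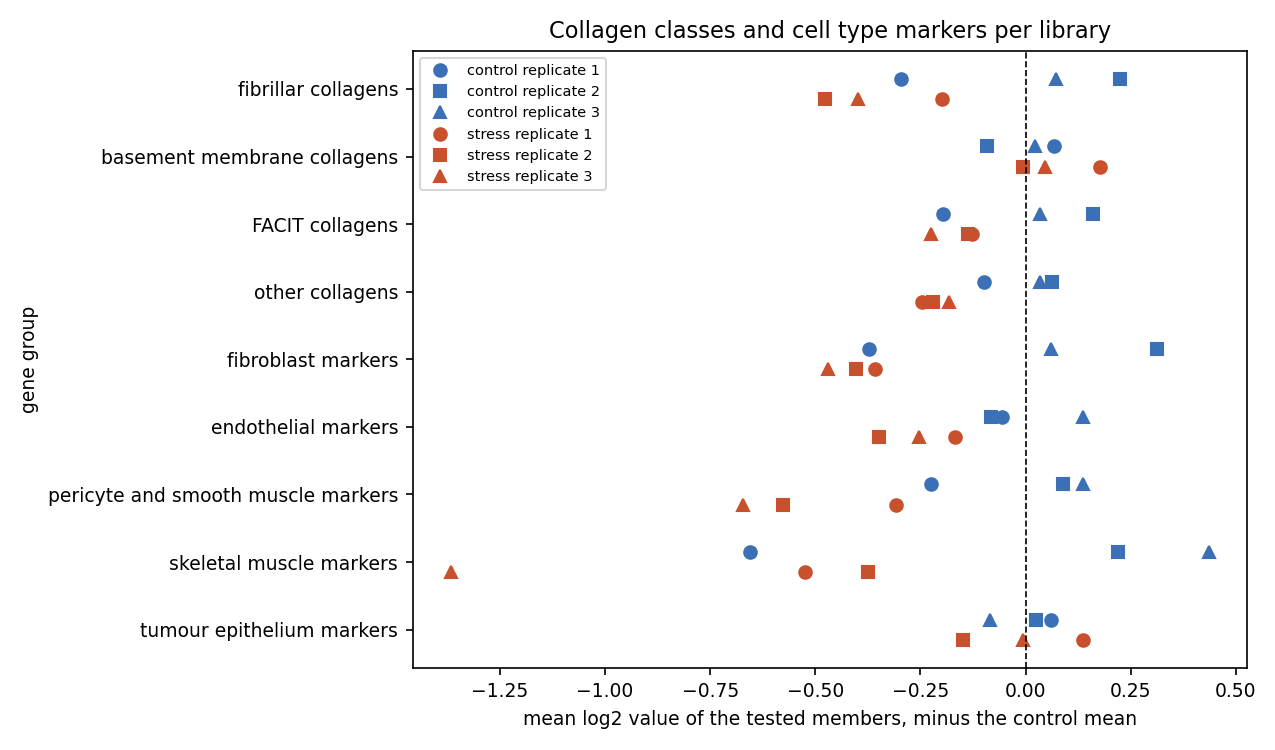
Mean log2 value of the tested members of each collagen class and marker list in each library, minus the control mean of that group (x axis, log2 scale), with control in blue and stress in red. In fibrillar collagens and fibroblast markers control replicate 1 lies among the stress libraries, while basement membrane collagens and tumour epithelium markers stay within 0.2 of the control mean in every library.

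On the linear scale (2 to the power of the deposited value), all 44 collagen genes together made up 1.12%, 1.83% and 1.51% of the summed values in control and 1.15%, 1.02% and 0.976% in stress. Types I and III alone made up 0.443%, 0.995% and 0.735% in control and 0.493%, 0.420% and 0.334% in stress. Control replicate 1 thus carried less of these chains than stress replicate 1. Type IV chains made up 0.163%, 0.158% and 0.177% in control and 0.177%, 0.143% and 0.154% in stress. Stress replicates 2 and 3 lay below all controls there, and stress replicate 1 within their range. These shares are of normalized values that were not divided by length.

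Col4a1 (chr8:11198423-11312826, minus strand) and Col4a2 (chr8:11312805-11449287, plus strand) encode the chains of the common type IV network, the scaffold of basement membranes. They are transcribed away from each other, and their gene models share 22 bases, where reads cannot be assigned without strand. Col4a1 had 14.09, 14.06 and 14.19 in control and 14.25, 13.91 and 14.03 in stress. Col4a2 had 13.25, 13.25 and 13.38 in control and 13.35, 13.06 and 13.26 in stress. These pairs of groups overlapped, and the differences were -0.05 for Col4a1 (95% interval -0.27 to 0.17, limma adjusted p = 0.817) and -0.07 for Col4a2 (95% interval -0.27 to 0.12, adjusted p = 0.681). Neither interval reaches the difference estimated for Col1a1, but the 95% interval of Col1a1 (-1.21 to -0.13) overlaps both. The difference between these genes was not tested.

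Col4a5 and Col4a6 lie on the X chromosome 1308 bases apart on opposite strands, and encode chains of the type IV networks found in kidney and smooth muscle. Col4a5 (chrX:141475385-141689234, plus strand) had 9.36, 8.83 and 9.06 in control and 9.53, 9.53 and 9.33 in stress. Stress replicate 3 lay below control replicate 1 and the other stress libraries above all controls, and the difference was 0.38 (SE 0.13, limma adjusted p = 0.217), the largest positive one among the tested collagen genes. Col4a6 was barely above the filter, with 4.05, 3.96 and 3.93 in control and 4.06, 3.96 and 4.04 in stress (difference 0.04, adjusted p = 0.725). Col4a3 and Col4a4, the chains of the glomerular network, were not tested. Their values were 2.41 to 2.48 and 3.23 to 3.33.

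Endothelial and mural cells also make basement membrane. Of 13 endothelial markers 12 were lower in stress and 7 had groups that did not overlap, where 12.3% of all genes were lower in that way, with means of 8.89 to 9.11 in control and 8.62 to 8.80 in stress, and summed linear values of 11088 to 12311 and 9526 to 10983. All 11 pericyte and smooth muscle markers were lower, 6 without overlap, with means of 8.72 to 9.08 and 8.27 to 8.64 and summed values of 9044 to 10844 and 5955 to 7664. Limma called 0 of these markers. The means of both lists separated the groups, while Col4a1 and Col4a2 did not; the markers' part in the type IV values was not tested.

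FACIT chains do not form fibrils themselves but sit on fibril surfaces. Col12a1, whose product bridges type I fibrils, had 13.49, 14.13 and 13.58 in control and 13.48, 13.44 and 13.48 in stress. The groups did not overlap, but control replicates 1 and 3 exceeded the stress libraries by little, and the difference of -0.27 (SE 0.16, limma adjusted p = 0.411) was -0.07 without control replicate 2. Col14a1, which also regulates fibril spacing, had 9.50, 11.02 and 10.37 in control and 9.66, 9.64 and 8.57 in stress. It had the most negative difference of any tested collagen gene, -1.01 (SE 0.44, adjusted p = 0.299), and the widest spread, with values from -1.40 without control replicate 1 to -0.64 without stress replicate 3. Its difference was -0.17 with the muscle marker mean as a covariate and -0.03 with the fibroblast marker mean. Col20a1 had 7.10, 6.80 and 6.96 in control and 7.18, 7.25 and 7.48 in stress, a difference of 0.35 (SE 0.11, adjusted p = 0.188), and was the one collagen gene whose stress libraries all lay above all controls. Col16a1 (0.08) and Col9a3 (0.04) differed little. The cartilage chains Col9a1 and Col9a2, and Col19a1 and Col22a1, were under the filter, with means of -0.94, -0.61, 0.03 and 3.10.

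Type VI collagen forms beaded filaments around cells from Col6a1, Col6a2 and a further chain, usually Col6a3. Col6a3 (chr1:90765923-90843971, minus strand), whose carboxy-terminal end is released as the adipose signalling peptide endotrophin, had 12.90, 13.30 and 13.16 in control and 12.49, 12.50 and 12.65 in stress. All control libraries exceeded all stress libraries, and the difference of -0.57 (SE 0.11) had the smallest p of the collagen genes (limma adjusted p = 0.104). Col6a1 (chr10:76708792-76726168, minus strand) had 13.09, 13.52 and 13.39 in control and 13.11, 13.19 and 13.57 in stress, a difference of -0.05 (95% interval -0.40 to 0.30, adjusted p = 0.900). Col6a2, on the same strand 85161 bases away, had 12.23, 12.84 and 12.60 in control and 12.10, 12.38 and 12.30 in stress, a difference of -0.30 (adjusted p = 0.364), or -0.46 and -0.16 without control replicates 1 and 2 in turn. The 3 genes of one filament thus gave unequal estimates. Adipocytes are known for making much Col6a3, and 2 of 3 tested adipocyte markers were lower in stress, with list means of 6.65 to 7.20 in control and 6.30 to 6.61 in stress and summed linear values of 577 to 934 and 418 to 549. The defining Adipoq (3.02) and Plin1 (3.59) were under the filter, and the part of these markers in the Col6a3 value was not tested. Among the chains that can replace Col6a3, Col6a6 differed by -0.33 (adjusted p = 0.224) and Col6a5 by -0.16 (adjusted p = 0.555), both at low levels, and Col6a4, at a mean of 2.64, was not tested.

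The balance of chains within a library does not depend on a scaling of whole libraries. Col6a3 minus Col6a1 was -0.20, -0.22 and -0.23 in control and -0.62, -0.69 and -0.92 in stress. The controls lay close together (SD 0.0149, n = 3) and apart from all stress libraries, and the difference of -0.53 ranged from -0.59 to -0.44 when a library was left out. Col5a1 minus Col5a2 was 0.03, -0.08 and 0.11 in control and 0.15, 0.31 and 0.42 in stress, a difference of 0.28 without overlap. Col4a5 minus Col4a1 was -4.73, -5.23 and -5.13 in control and -4.73, -4.38 and -4.69 in stress, so the groups only just failed to overlap. Against its neighbour Col4a6 the groups did overlap. Col4a5 minus Col4a6 was 5.30, 4.87 and 5.13 in control and 5.47, 5.57 and 5.29 in stress. By contrast, Col1a1 minus Col1a2 was 0.33, 0.27 and 0.29 in control and 0.27, 0.27 and 0.45 in stress, a span of 0.18 although each chain alone spanned at least 1.22. Col4a1 minus Col4a2 likewise spanned 0.14 over the 6 libraries. For Col6a1 minus Col6a2 (0.68 to 0.87 in control and 0.81 to 1.27 in stress) and Col3a1 minus Col1a1 (-0.01 to 0.48 and -0.24 to 0.37) the groups overlapped. An exact permutation test of 3 libraries against 3 cannot go below p = 0.1, and these differences between chains were not tested.

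**Figure D5:**
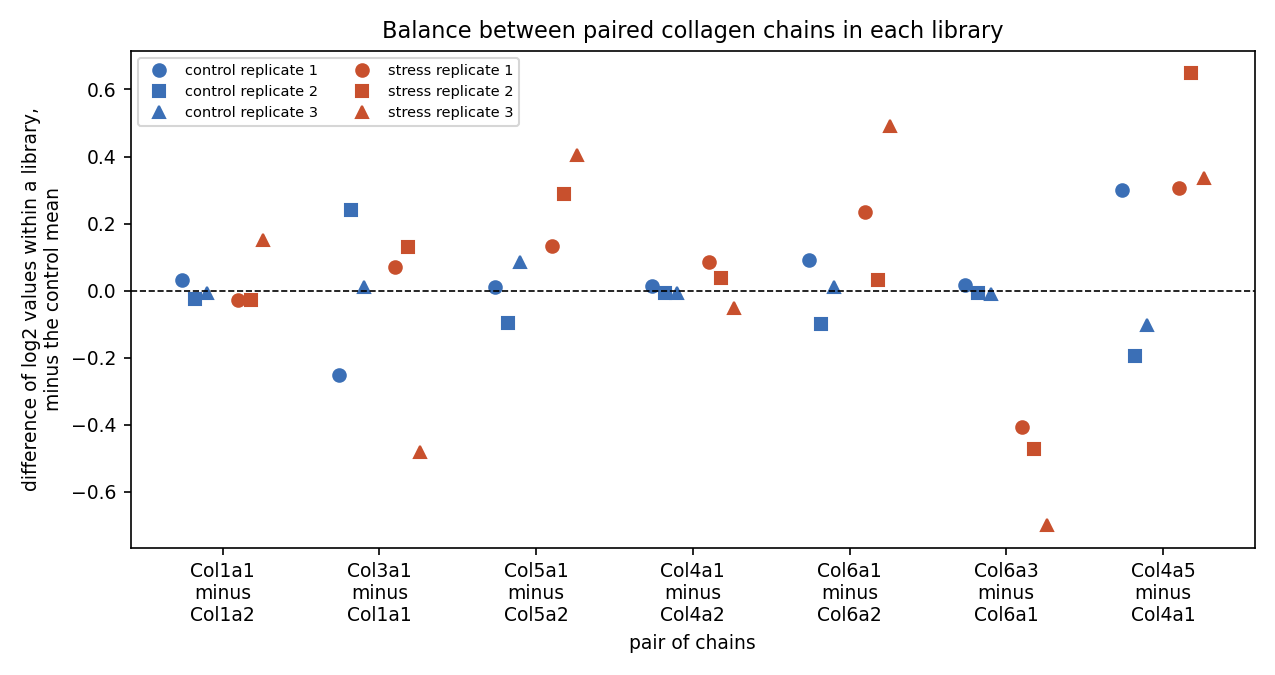
Difference of log2 values between the members of each of 7 pairs of collagen chains within a library, minus the control mean of that pair (y axis, log2 scale), with control in blue and stress in red. Col6a3 minus Col6a1 separates the groups, and Col1a1 minus Col1a2 and Col4a1 minus Col4a2 stay close to 0.

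Types XV and XVIII are related basement membrane proteins that carry sugar chains. Col15a1 (chr4:47208161-47313167, plus strand) had 11.11, 11.71 and 11.58 in control and 10.87, 10.62 and 10.79 in stress, without overlap, and a difference of -0.71 (SE 0.15, limma adjusted p = 0.120). Col18a1, the source of endostatin, had 12.99, 13.20 and 12.99 in control and 12.96, 13.22 and 13.05 in stress, a difference of 0.02 (95% interval -0.19 to 0.23, adjusted p = 0.934). The interval for Col18a1 does not reach the estimate for Col15a1, though the difference between these relatives was not tested. Col28a1, a minor collagen described around peripheral nerve, had 6.10, 6.54 and 6.44 in control and 5.70, 5.83 and 5.54 in stress, without overlap (difference -0.66, SE 0.13, adjusted p = 0.107). Schwann cell markers did not share that order: 2 of 5 tested were lower, with means of 7.12 to 7.37 in control and 7.15 to 7.31 in stress, summed linear values of 1206 to 1419 and 1286 to 1402, and Foxd3 (0.85) and Sox10 (3.19) at low levels. Without control replicate 1, Col6a3, Col15a1 and Col28a1 stood at -0.68, -0.88 and -0.79, each with a limma adjusted p of 0.0668. Without control replicate 2 they stood at -0.48, -0.59 and -0.57. Over all runs that left out 1 library, their largest limma adjusted p was 0.334, 0.341 and 0.334. With the fibroblast mean as a covariate these genes stood at -0.35, -0.35 and -0.39.

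The other collagens anchor epithelia, line vessels or span membranes. Col7a1, which forms anchoring fibrils under epithelia, had 13.78, 13.19 and 13.66 in control and 13.36, 13.21 and 13.50 in stress (difference -0.18, limma adjusted p = 0.568, and -0.07 and -0.36 without control replicates 1 and 2 in turn). Col8a1, a network collagen of vessel walls, had 12.44, 12.60 and 12.39 in control and 12.45, 12.28 and 12.10 in stress (difference -0.20, adjusted p = 0.351). Their groups overlapped. Col17a1, a hemidesmosome protein of basal keratinocytes, had 4.79, 4.73 and 4.70 in control and 4.79, 4.66 and 4.72 in stress (difference -0.02, adjusted p = 0.880). Of 7 keratinocyte markers 3 passed the filter, the list summed to 612 to 921 in control and 535 to 758 in stress on the linear scale, and Krt5 (0.10) and Lor (-1.03) were near or under 0, while Krt14 stood at 8.83 to 9.73. The transmembrane collagen Col23a1 had the largest positive difference among the others, 0.18 (adjusted p = 0.424). Col8a2 (-0.12), the transmembrane Col13a1 (-0.11) and Col26a1 (-0.04) completed the tested ones, while Col10a1, the collagen of hypertrophic cartilage, and Col25a1 were under the filter, with means of 2.50 and 2.73.

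Genes that process collagen were counted in lists. Of 19 genes for procollagen modification and folding limma called 0, 11 were lower and 8 higher. At an unadjusted p under 0.05, 4 were lower and 3 higher, where 9.15% and 8.26% of all genes were. Fkbp10, a folding enzyme of the endoplasmic reticulum that acts on type I collagen, had 9.46, 9.87 and 9.71 in control and 9.18, 8.89 and 8.90 in stress, a difference of -0.69 (adjusted p = 0.0989). P4ha1, a catalytic subunit of prolyl hydroxylase, had 11.82, 12.08 and 11.76 in control and 12.33, 12.21 and 12.38 in stress, a difference of 0.42 (adjusted p = 0.120). Both genes were without overlap and neither was called. They were named for the smallest p of the list, so their separation follows in part from that choice. In the list, 4 genes were lower and 3 higher without overlap, where 12.3% and 12.1% of all genes were. Of 15 genes for export, cleavage and crosslinking 0 were called, 10 were lower and 2, both lower, had an unadjusted p under 0.05. They were the crosslinking enzyme Loxl1 (-0.65, adjusted p = 0.120) and the procollagen protease Adamts2 (-0.42, adjusted p = 0.269).

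Of 10 collagen receptors limma called 0 and 7 were lower. At an unadjusted p under 0.05, 2 were lower and 1 higher, where 9.15% and 8.26% of all genes were. The same shares over all genes apply to each list below. The uptake receptor Mrc2 differed by -0.58 (adjusted p = 0.138) and the integrin chain Itga2 by -0.28 (adjusted p = 0.187). Of 10 collagen-degrading proteases 0 were called, 6 were lower and 1 had an unadjusted p under 0.05, the fibroblast protease Fap at -0.66 (adjusted p = 0.129); the lysosomal Ctsl was next by p at 0.20 (adjusted p = 0.292). All 8 tested small leucine-rich proteoglycans, which coat fibrils, had a lower mean in stress, with a median of -0.43, 0 called and 1 with an unadjusted p under 0.05. Biglycan (Bgn) had 13.09, 13.73 and 13.56 in control and 12.92, 12.73 and 12.78 in stress (difference -0.65, adjusted p = 0.138), and Fmod, another of them, differed by -0.29 (adjusted p = 0.356). Among 17 partners of type IV collagen in basement membranes 0 were called, 11 were lower, the median was -0.09, and at an unadjusted p under 0.05, 5 were lower and 1 higher. The laminin chain Lamc1 differed by 0.25 (adjusted p = 0.147) and Lama1 by -0.33 (adjusted p = 0.177). These laminin chains, named for the smallest p of the list, differed in sign and were not called. The list mean was 11.02 to 11.13 in control and 10.88 to 11.01 in stress, narrowly without overlap. Its summed linear values overlapped (106074 to 114487 and 104105 to 117982). The negative estimates of Col4a1 and Col4a2 turned sign without stress replicate 2.

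The miR-29 family is known for pairing with collagen mRNAs, so its sequences and its matches in the 3' UTRs of collagen genes are shown. The mature sequences are from RefSeq (GRCm38.p6), with the seed, bases 2 to 8, in capitals. All of them share the seed AGCACCA, whose match in an mRNA is TGGTGCT.
miR-29a-3p: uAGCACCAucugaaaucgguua
miR-29b-3p: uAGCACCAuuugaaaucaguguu
miR-29c-3p: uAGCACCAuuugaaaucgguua
Stretches of 23 bases around a seed match (in capitals) follow for chains named above, from GENCODE M21 transcripts on GRCm38, written as the mRNA strand.
Col1a1, chr11:94952526-94952548, plus strand: ggaaggaatttcTGGTGCTatag
Col3a1, chr1:45348970-45348992, plus strand: aaaatgtctcaaTGGTGCTataa
Col5a2, chr1:45374962-45374984, minus strand: ttcttttaatgaTGGTGCTaaaa
Col4a1, chr8:11199758-11199780, minus strand: accgtcacaacaTGGTGCTactc
Col4a5, chrX:141688241-141688263, plus strand: tgctcccaccaaTGGTGCTaata
Col15a1, chr4:47312488-47312510, plus strand: caatccacatatTGGTGCTagat

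Seed matches were counted in 3' UTRs of at least 30 bases. They were present in 23 of 41 collagen genes (56.1%), against 2441 of 20374 coding genes (11.98%), or 0.767 against 0.107 matches per kb. By class they were present in 9 of 10 fibrillar, 6 of 6 basement membrane, 3 of 9 FACIT and 5 of 16 other chains. The 19 tested collagen genes with a match had a median difference of -0.20 and 14 were lower in stress. The 13 without a match had a median of -0.12 and 10 were lower. A match is a stretch of letters and does not show that the miRNA acts there.

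The miRNA libraries held 1738056 to 3202224 counts. miR-29a-3p had 6597, 5095 and 5853 CPM (counts scaled to the library total) in control and 7291, 7433 and 7472 CPM in stress. All stress libraries exceeded all controls, and the log2 ratio was 0.34 (SE 0.14, edgeR adjusted p = 0.204), which did not pass. miR-29b-3p had 939, 382 and 462 CPM in control and 338, 429 and 425 CPM in stress, a log2 ratio of -0.57 (edgeR adjusted p = 0.323). Control replicate 1 alone was high, and without it the log2 ratio was -0.10. The least abundant, miR-29c-3p, had 15.8, 19.1 and 26.9 CPM in control and 19.1, 13.4 and 17.3 CPM in stress (log2 ratio -0.33, edgeR adjusted p = 0.555). Members of one seed family thus differed in sign, and none was called. EdgeR called 0 of all 462 miRNAs tested (0%), with 110 at an unadjusted p under 0.05. DESeq2 called 32 of 496, none of them of this family.

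Promoter windows are given for fibrillar chains with similar estimates. RefSeq windows of 300 bases, 250 before and 50 after a start, matched 35 of the 44 collagen genes in 38 windows. On both strands 3 motifs were searched, none of which contains another: the CCAAT box (CCAAT or ATTGG), the GC box (GGGCGG or CCGCCC) and the TATA box (TATAAA or TTTATA). The GC box was in 60.5% of collagen windows and 35.7% of all 32851 windows, the CCAAT box in 34.2% and 37.4%, and the TATA box in 13.2% and 13.6%. The 250 bases before the RefSeq start are shown for Col1a2 and Col3a1 (GRCm38.p6), with motif matches in capitals. For Col1a2 that stretch lies inside the GENCODE gene model given above, which begins further upstream.
Col1a2, chr6:4505368-4505617, plus strand: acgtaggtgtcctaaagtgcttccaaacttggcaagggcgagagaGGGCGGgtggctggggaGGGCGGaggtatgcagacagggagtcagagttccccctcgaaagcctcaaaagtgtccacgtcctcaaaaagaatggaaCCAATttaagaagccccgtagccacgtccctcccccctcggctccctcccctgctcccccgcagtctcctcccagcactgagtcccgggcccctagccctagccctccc
Col3a1, chr1:45311288-45311537, plus strand: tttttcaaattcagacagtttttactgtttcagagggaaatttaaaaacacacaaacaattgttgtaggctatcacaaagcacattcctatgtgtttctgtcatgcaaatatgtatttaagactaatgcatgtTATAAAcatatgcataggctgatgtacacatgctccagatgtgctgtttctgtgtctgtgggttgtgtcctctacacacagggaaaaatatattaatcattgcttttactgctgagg
The Col1a2 stretch has a GC content of 62.0% with 2 GC boxes and 1 CCAAT box. Its searched window of 300 bases has 2 CCAAT matches, the other at position 251, directly after the printed stretch. The Col3a1 stretch has a GC content of 35.2% with 1 match of the TATA motif, at -117 from the start. A match is a description and says nothing of a factor's binding.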

How the data were processed

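The authors deposited an mRNA table of log2 values, normalized and shrunk at low levels; the transform and the base of the logarithm are not given in the sources used here, and base 2 was assumed. Named in the submitters' processing notes are kallisto 0.46.1, bcl2fastq and mm10. The miRNA table, as deposited, has unnormalized read counts, and 1 precursor row, the one with the highest total, was kept per mature miRNA.

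Of 35453 mRNA rows, 12658 at 0 in all libraries and 26 bearing dates were left out. Genes whose mean log2 value reached 4 were fitted with limma 3.58.1 (trend, robust) and miRNAs with edgeR 4.0.16 (TMM, filterByExpr, quasi-likelihood), in R 4.3.3, with DESeq2 1.42.0 as an alternative. Tests were two-sided, without covariates, with adjustment over all features of a table. Scripts were tested on simulated data.

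The collagen genes, the other lists and the named genes (a set list, with the smallest p and largest differences per class, and the smallest 2 p per pathway list) were chosen with earlier results of these data known. Alternatives covered filters, normalization, limma options, marker covariates, a replicate block and leaving out each library.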

Additional observations from a re-analysis of the deposited data

How the results depend on the processing

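Limma called 0 collagen genes in every alternative run, with the smallest adjusted p ranging from 0.0668 (without control replicate 1) to 0.512 (muscle covariate). The median over all collagen genes was -0.0492 with no filter, -0.279 with a mean log2 minimum of 6 and -0.0412 with the fibroblast covariate. That covariate put the fibrillar median at -0.0437 and that of the other collagens at -0.0573, and the filter at 6 put the FACIT median at -0.0984.

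With the fibroblast covariate the sign turned for Col11a2 (-0.04), Col12a1 (0.070), Col13a1 (0.027), Col3a1 (0.16), Col4a6 (-0.021), Col5a1 (0.032), Col6a1 (0.16), Col6a2 (0.041), Col6a5 (0.015) and Col9a3 (-0.053). It turned with the muscle covariate for Col4a6 (-0.025) and Col9a3 (-0.019), and with quantile normalization for Col18a1 (-0.042) and Col26a1 (0.014). The marker means come from the same libraries and tended to be lower in stress, so these covariate fits cannot separate them from stress. The cause of these turns was not tested.

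When each library was left out in turn, the sign also turned for Col17a1 (-0.052 to 0.012), Col18a1 (-0.053 to 0.088), Col26a1 (-0.070 to 0.012), Col2a1 (-0.050 to 0.18), Col4a1 (-0.15 to 0.026), Col4a2 (-0.14 to 0.0081), Col6a1 (-0.19 to 0.046) and Col9a3 (-0.038 to 0.12). The fibrillar median then ranged from -0.624 to -0.283, the basement membrane median from -0.0604 to 0.0472 and the FACIT median from -0.0380 to 0.119.

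With the replicate number as a block limma called 0 collagen genes, with a smallest adjusted p of 0.178. Same-numbered libraries had correlations of -0.079, 0.082 and -0.018 between their deviations from the group means, and control replicate 1 correlated best with stress replicate 3 (0.155), so the numbers were not taken to pair libraries.

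Of all 14098 genes limma called 5, against 11 with the minimum at 6, 8 with quantile normalization and 0 with the block, with either covariate, or on leaving out control replicate 1 or 3 or stress replicate 1 or 3. Among miRNAs edgeR called 69 without a filter and 82 without control replicate 1, against 0, and no miR-29 was called in any alternative. Read depth behind the mRNA values is unknown, so no limit of detection is given.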
